A study of Rattus norvegicus with 3 samples.

Results

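Of 20174 gene probes on the array, 4 were chosen by their Ensembl rat gene identifiers as a small set for the unfolded protein and oxidative stress responses. The identifiers were meant as Hspa5 (ENSRNOG00000018294), Atf4 (ENSRNOG00000017801), Ddit3 (ENSRNOG00000006789) and Hmox1 (ENSRNOG00000014117). This pairing was given with the choice of probes and could not be checked, because the gene table used here holds 0 Ensembl identifiers and 0 of the 20174 probe identifiers matched it. The choice was made by identifier, without a threshold on measured values but with earlier results of these data known. All 4 identifiers were found on all 3 arrays, and none was dropped. Each symbol below therefore stands for the intended gene, and each value belongs to the identifier.

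The samples were 3 preparations of total RNA from rat Schwann cell precursors, kept in modified Sato medium under conditions labelled normal. These embryonic glial cells descend from neural crest and give rise to the Schwann cells of peripheral nerve. The treatment text in the labels speaks of oligodendrocyte precursors instead, and the cell type could not be checked against marker genes because no identifier has a symbol here. All samples form a single group with no untreated, stressed or mutant counterpart. Nothing states that they came from separate cultures, so SDs measure only the spread between these samples, which may be technical in origin. The p-values below set that spread against the spread of gene probes of like level and compare no samples with each other.

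Proteins entering the secretory pathway fold in the endoplasmic reticulum, and misfolded proteins there start the unfolded protein response. Hspa5 encodes BiP, the chaperone of that compartment, which holds the stress sensors inactive until unfolded proteins draw it away. Phosphorylation of the initiation factor eIF2alpha slows translation in general and favours translation of Atf4, a transcription factor whose protein output is thus set largely after transcription. Ddit3 encodes CHOP, a transcription factor downstream of ATF4 that is linked to cell death under lasting stress. Hmox1 encodes haem oxygenase 1, which breaks down haem and is a classic target of the oxidative stress factor NRF2. In mice, misfolded myelin protein zero in Schwann cells is known to set off this response.

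The stretches upstream of the intended genes are shown because they were searched for response elements known from these stress pathways. They were taken by symbol from RefSeq's GRCr8 tables, cover 250 bases before the annotated gene start on the plus strand, and matched for Hspa5 (chr3:38452766-38453015), Atf4 (chr7:113684431-113684680) and Ddit3 (chr7:65001445-65001694). Hmox1 is annotated at chr19:13452365-13479823. Capitals mark matches, on either strand, to the motifs searched, which are spelled out after the sequences.
Hspa5: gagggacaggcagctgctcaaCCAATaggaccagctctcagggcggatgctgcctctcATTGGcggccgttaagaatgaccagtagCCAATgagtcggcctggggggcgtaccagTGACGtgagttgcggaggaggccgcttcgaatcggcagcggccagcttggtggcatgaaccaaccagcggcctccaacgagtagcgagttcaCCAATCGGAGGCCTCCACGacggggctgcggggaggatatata
Atf4: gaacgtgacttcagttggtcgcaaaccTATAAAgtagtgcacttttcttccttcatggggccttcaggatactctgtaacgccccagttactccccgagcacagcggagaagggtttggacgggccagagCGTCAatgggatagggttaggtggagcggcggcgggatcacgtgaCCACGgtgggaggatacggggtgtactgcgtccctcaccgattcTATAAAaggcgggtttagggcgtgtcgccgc
Ddit3: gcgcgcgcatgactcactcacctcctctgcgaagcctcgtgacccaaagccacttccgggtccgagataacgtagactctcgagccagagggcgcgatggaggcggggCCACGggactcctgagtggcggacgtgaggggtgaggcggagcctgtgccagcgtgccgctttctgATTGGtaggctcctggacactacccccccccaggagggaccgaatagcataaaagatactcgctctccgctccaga

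The ER stress response element, spelled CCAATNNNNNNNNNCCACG, occurred in the Hspa5 window from 43 to 25 bases before the gene start, and in no other of the 3 windows. Among 33469 windows of the same length in the table, 22 (0.0657%) held it. Its parts are common on their own: CCAAT was found in 34.0% of all windows and CCACG in 27.2%. Hspa5 held 4 copies of CCAAT, 1 of them inside the response element and 1 on the minus strand, Ddit3 held 1 copy on the minus strand, and CCACG occurred once in each of the 3 windows. The cyclic AMP core TGACG (18.2% of all windows) was matched once in Hspa5 and once, on the minus strand, in Atf4. The Atf4 window held TATAAA (12.9% of all windows) at 31 to 26 bases and at 223 to 218 bases before the gene start. The letters TGATGNAAT (amino acid response core, 0.944% of all windows), TGACGTCA (full cyclic AMP site, 1.59%) and TGACNNNGC (antioxidant response core, 10.1%) were not found in these 3 windows. Such matches describe the letters of the windows and were not measured here as bound sites.

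All 4 probes were above background on all 3 arrays, as were 16226 of the 20174 gene probes (80.4%). The threshold was 56.8 units in replicate 1, 58.1 units in replicate 2 and 65.4 units in replicate 3, set from blank spots. Spots named blank numbered 1344, 5808 and 1344 in replicates 1, 2 and 3, so replicate 2 had a larger set of them. With only the blank positions shared by all arrays, all 4 probes were also above background. No scanner gain was flagged as failed at any of the 4 spots. Brightness also depends on how well a probe binds, so the ranks given below order spots on an array and not RNA amounts between genes.

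ENSRNOG00000018294, meant as the chaperone gene Hspa5, gave spot intensities of 5296 units in replicate 1, 4076 units in replicate 2 and 4176 units in replicate 3, with a mean of 4516 ± 677 units (SD, n = 3). Those spots were 95.6, 71.6 and 65.4 times the blank mean of their arrays. By brightness the probe ranked 330, 430 and 309 among the 20174 gene probes of replicates 1, 2 and 3, so that 98.4%, 97.9% and 98.5% of gene probes were dimmer. It was thus among the brightest probes of each array, and highest in raw intensity on replicate 1.

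ENSRNOG00000017801, meant as the transcription factor gene Atf4, gave 4088, 3400.5 and 3460 units in replicates 1, 2 and 3 (mean 3649 ± 381 units, SD, n = 3). Those spots stood at 73.8, 59.7 and 54.2 times the blank mean. The probe ranked 431, 513 and 375 from the brightest, with 97.9%, 97.5% and 98.1% of gene probes below it. As with the probe meant as Hspa5, replicate 1 was highest and replicate 2 lowest in raw intensity, and its rank was poorest on replicate 2.

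ENSRNOG00000006789, meant as the CHOP gene Ddit3, gave 307, 341 and 255 units in replicates 1, 2 and 3 (mean 301 ± 43.4 units, SD, n = 3), which exceeded the blank means of the arrays by 251, 285 and 191 units. It ranked 4554, 3875 and 4410, above 77.4%, 80.8% and 78.1% of gene probes. Replicate 2 was the brightest and best ranked array for this probe, and replicate 3 the dimmest.

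ENSRNOG00000014117, meant as the haem oxygenase gene Hmox1, gave 379, 398 and 329 units in replicates 1, 2 and 3 (mean 369 ± 35.6 units, SD, n = 3), or 6.85, 6.99 and 5.15 times the blank mean. Its ranks were 3915, 3441 and 3542, above 80.6%, 82.9% and 82.4% of gene probes. The brightest and dimmest arrays were again replicates 2 and 3, and the lowest rank fell on replicate 1.

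**Figure D1:**
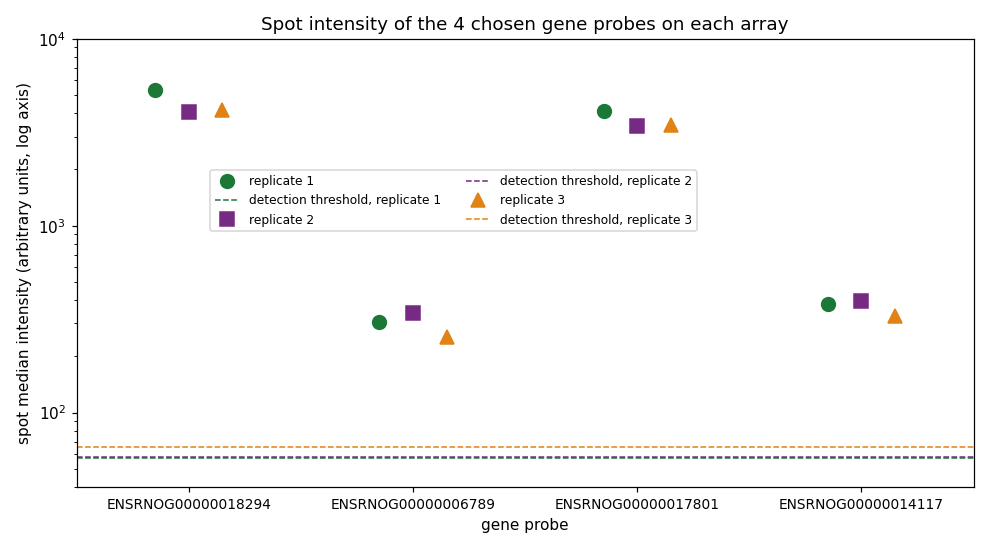
Spot median intensity (arbitrary units, log axis) of the 4 probes, with a point for each of the 3 arrays and dashed lines at the detection thresholds of 56.8, 58.1 and 65.4 units. Intensities of ENSRNOG00000018294 and ENSRNOG00000017801 lie between 3400.5 and 5296 units, those of ENSRNOG00000006789 and ENSRNOG00000014117 between 255 and 398 units, and every point is above the thresholds.

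After quantile normalization, the log2 intensity of ENSRNOG00000018294 was 12.27, 11.87 and 12.36 in replicates 1, 2 and 3 (mean 12.17 ± 0.26, SD, n = 3). ENSRNOG00000017801 had 11.86, 11.60 and 12.09 on the same scale (mean 11.85 ± 0.24, SD, n = 3). Replicate 3 was the highest and replicate 2 the lowest array for both. ENSRNOG00000006789 had 8.08, 8.39 and 8.14 (mean 8.20 ± 0.16, SD, n = 3), and ENSRNOG00000014117 had 8.37, 8.60 and 8.55 (mean 8.51 ± 0.12, SD, n = 3). For this second pair replicate 2 was highest and replicate 1 lowest. The median level of the 4 probes was 10.18, against 6.75 for the 16226 gene probes detected in every sample.

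**Figure D2:**
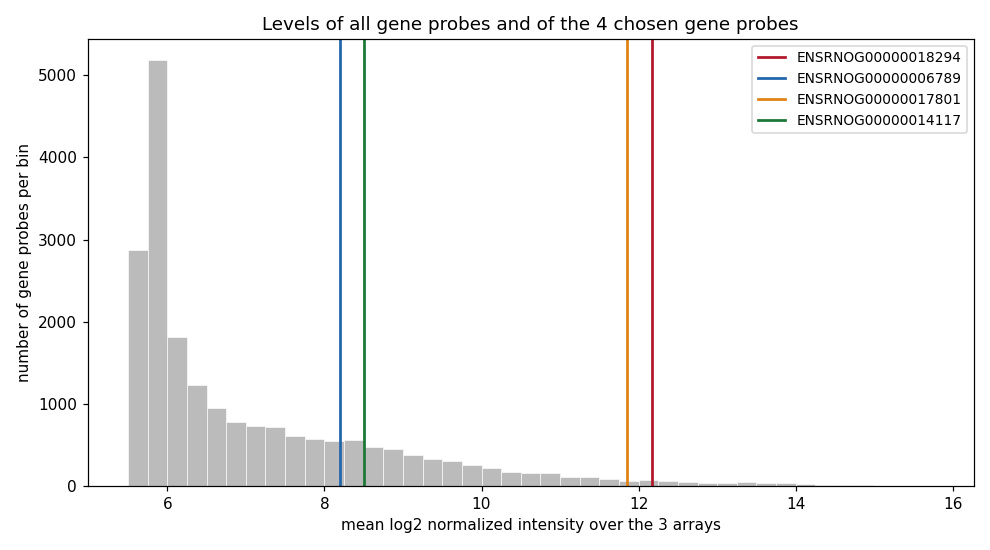
Number of gene probes per bin of mean log2 normalized intensity over the 3 arrays (grey bars, 20174 probes), with vertical lines at the means of the 4 chosen probes. The lines of ENSRNOG00000006789 (8.20) and ENSRNOG00000014117 (8.51) stand in the upper slope of the distribution, and those of ENSRNOG00000017801 (11.85) and ENSRNOG00000018294 (12.17) in its thin upper tail.

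In the quantile-normalized values, all 4 probes stayed within a 2-fold range over the arrays. The highest and lowest arrays differed by 0.49 on the log2 scale for ENSRNOG00000018294 (1.41-fold), 0.49 for ENSRNOG00000017801 (1.40-fold), 0.31 for ENSRNOG00000006789 (1.24-fold) and 0.23 for ENSRNOG00000014117 (1.18-fold). A 2-fold range was reached by 0 of the 4 probes and by 101 of 16226 gene probes (0.622%). With normexp on the local background, ENSRNOG00000017801 ranged 9.13-fold and ENSRNOG00000006789 2.72-fold, as described further on. The variance test set each probe's variance over the arrays against limma's prior for its level. By this variance test, 0 of the 4 passed at an adjusted p under 0.05, against 2 of 16226 gene probes (0.0123%). Their unadjusted p-values from the same variance test were 0.33 (ENSRNOG00000018294), 0.51 (ENSRNOG00000006789), 0.38 (ENSRNOG00000017801) and 0.70 (ENSRNOG00000014117), and each adjusted p was 0.995. Unadjusted, 0 of the 4 were under 0.05, against 932 of all 16226. With normexp on the local background, the variance test gave ENSRNOG00000017801 an unadjusted p of 0.0063, so that 1 of the 4 was under 0.05, against 937 of all genes. Missing this threshold does not show that the samples had equal levels.

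The spread of the probes is best read beside genes of their own level, because on this scale brighter probes vary more. In the quantile-normalized values, the median SD was 0.20 for the 4 probes and 0.093 for all 16226. Of all 16226, 89.7% and 87.7% had a lower SD than ENSRNOG00000018294 and ENSRNOG00000017801. For ENSRNOG00000006789 and ENSRNOG00000014117 these shares were 73.0% and 60.5%. The shares changed with the processing. In the deposited value table they were 2.22%, 9.45%, 65.7% and 50.2% for the 4 probes in the same order. The median SD of all genes there was 0.30. With the blank mean subtracted they were 57.8%, 54.0%, 40.7% and 23.9%, against a median SD of 0.23. With normexp on the local background they were 77.5%, 99.5%, 94.3% and 68.4%. After quantile normalization, ENSRNOG00000018294 and ENSRNOG00000017801 lay in the brightest quartile of the tested genes. The median SD there was 0.18, and 75.2% and 70.9% of its 4057 genes varied less than these probes did. ENSRNOG00000014117 lay in the same quartile, and 26.8% of its genes varied less. ENSRNOG00000006789 lay in the quartile below, with a median SD of 0.14, and 59.6% of 4056 genes there varied less. No probe stood near either end of its quartile.

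In the quantile-normalized values, the 4 probes did not all deviate in the same direction on replicate 2, and no probe passed the variance test. Replicate 2 was highest for 2 of the 4 and for 39.9% of all genes tested. Its difference from the mean of replicates 1 and 3 was -0.45 for ENSRNOG00000018294 and -0.38 for ENSRNOG00000017801, and 0.28 for ENSRNOG00000006789 and 0.14 for ENSRNOG00000014117, against a median of 0.0012 over all genes. Of all genes, 4.20% and 6.30% had a lower value than the probes meant as Hspa5 and Atf4, while 89.8% and 79.6% had a lower value than those meant as Ddit3 and Hmox1. Within their level quartiles these shares were less extreme, at 10.03% and 14.2% for the brighter pair and 84.0% and 66.8% for the other. With normexp on the local background, ENSRNOG00000017801 turned to 0.27 and ENSRNOG00000014117 to -0.14, while ENSRNOG00000018294 (-0.65) and ENSRNOG00000006789 (0.92) kept their signs. The order seen for the brighter pair, replicate 3 highest and replicate 2 lowest, was shared by 18.8% of the 16226 genes. That of the other pair, replicate 2 highest and replicate 1 lowest, was shared by 18.4%. With 3 arrays no correlation between the probes is given.

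In the quantile-normalized values, replicates 1 and 3 were the closest pair of arrays for 3 of the 4 probes. Replicate 3 minus replicate 1 was 0.086 for ENSRNOG00000018294, 0.062 for ENSRNOG00000006789, 0.22 for ENSRNOG00000017801 and 0.18 for ENSRNOG00000014117, all above the median of all genes (-0.0062). With median scaling in place of quantile normalization all 4 differences were below 0 and below the median of all genes, so this direction depends on the scaling. Relative to the median of their level quartile, all 4 were above 0 under median scaling too (0.11, 0.011, 0.21 and 0.21 in the same order). With normexp on the local background these quartile-relative values were 0.098, 1.12, -3.13 and -0.47, so the 4 probes shared no direction there. The closest arrays also changed with median scaling, to replicates 2 and 3 for ENSRNOG00000018294 (0.10) and ENSRNOG00000017801 (0.091) and to replicates 1 and 3 for ENSRNOG00000014117 (-0.10). With quantile normalization, replicates 2 and 3 were the closest for ENSRNOG00000014117, with a difference of -0.053. Leaving out replicate 2 leaves ranges of 0.086 for ENSRNOG00000018294, 0.062 for ENSRNOG00000006789 and 0.22 for ENSRNOG00000017801. These are the replicate 3 minus replicate 1 differences again and no further result. The same holds for the 0.053 of ENSRNOG00000014117 without replicate 1. Dropping the highest or lowest array can only lower a range. The median range of all genes fell too, from 0.18 to 0.072 without replicate 2 and to 0.11 without replicate 1.

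In the authors' deposited value table, the normalized intensities of ENSRNOG00000018294 were 2445, 2638 and 2503 in replicates 1, 2 and 3. ENSRNOG00000017801 had 1882, 2195 and 2067, ENSRNOG00000006789 had 117, 187 and 116, and ENSRNOG00000014117 had 151, 224 and 161. All 4 were highest on replicate 2 in that table, where the median over all listed genes of replicate 2 minus the mean of the others was itself 0.38 on the log2 scale. Relative to that shift, replicate 2 differed by -0.29 for ENSRNOG00000018294, -0.22 for ENSRNOG00000017801, 0.30 for ENSRNOG00000006789 and 0.14 for ENSRNOG00000014117. The brighter pair was thus below, and the other pair above, the shift of the array, as in the quantile-normalized values but not with normexp on the local background, where 1 probe of each pair turned.

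**Figure D3:**
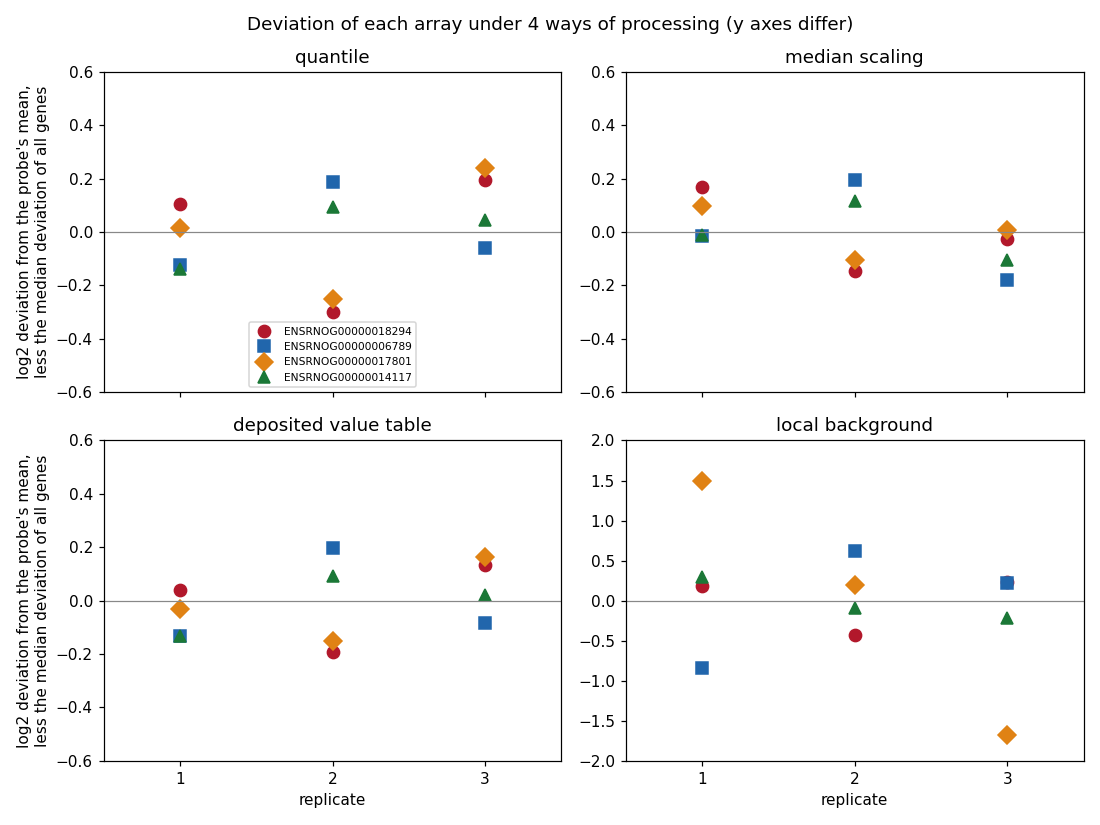
Deviation of each array from a probe's own mean (log2, y axis) by replicate (x axis), less the median deviation of all genes on that array, for quantile normalization, median scaling, the deposited value table and normexp with local background, which has a wider y axis. On replicate 2, ENSRNOG00000018294 and ENSRNOG00000017801 lie below 0 and ENSRNOG00000006789 and ENSRNOG00000014117 above 0 in the panels without local background, while ENSRNOG00000017801 falls far below 0 on replicate 3 in the panel with it.

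Each of the 4 spots has the same position on all arrays. The local background recorded beside them differed widely between arrays nonetheless. For ENSRNOG00000017801 it was 1397 units in replicate 1, 517 units in replicate 2 and 3042 units in replicate 3, which is 34.2%, 15.2% and 87.9% of the spot median. For ENSRNOG00000006789 it was 287, 63.1 and 143 units, or 93.6%, 18.5% and 55.8% of the spot. Each of these probes thus had 1 array on which the background was recorded almost as bright as the spot. ENSRNOG00000018294 had 58.8%, 5.60% and 23.9%, and ENSRNOG00000014117 had 59.6%, 28.6% and 54.7%. Among all gene spots over 250 units, a limit set below the dimmest of the 4 probes after their values were seen, the median was 74.7%, 25.8% and 47.3% in replicates 1, 2 and 3, and 90% of such spots were at or below 93.1%, 52.1% and 73.7%. The 87.9% of ENSRNOG00000017801 in replicate 3 and the 93.6% of ENSRNOG00000006789 in replicate 1 were above these limits. The spots compared were all those over 250 units and were not matched in brightness to each probe.

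**Figure D4:**
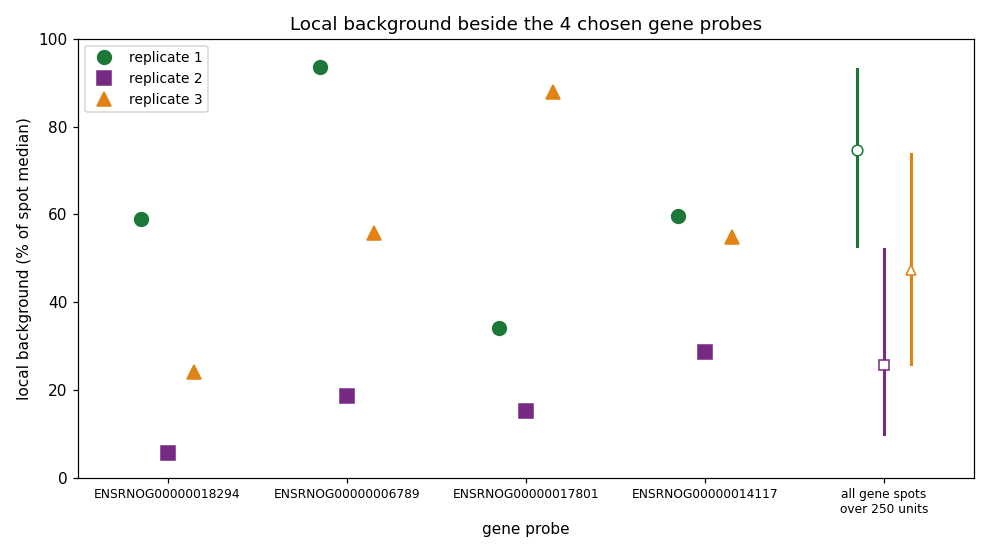
Local background as a percentage of the spot median (y axis, from 0) for the 4 probes on each array (filled points), and for all gene spots over 250 units (open points at the median, lines from the 10th to the 90th percentile). Replicate 2 is lowest for every probe, and ENSRNOG00000006789 on replicate 1 (93.6%) and ENSRNOG00000017801 on replicate 3 (87.9%) stand highest.

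Correcting for this local background with normexp changed these 2 probes most. With it, ENSRNOG00000017801 ranged over 3.19 on the log2 scale (9.13-fold) and ENSRNOG00000006789 over 1.44 (2.72-fold), so that 2 of the 4 probes passed a 2-fold range, where 2075 of 16226 genes did. ENSRNOG00000018294 ranged over 0.66 and ENSRNOG00000014117 over 0.54. With the local background subtracted from the spot, the share of gene probes dimmer than ENSRNOG00000006789 ran from 59.9% to 83.3% over the arrays, and that for ENSRNOG00000017801 from 92.2% to 99.1%. The shares ran from 98.2% to 98.85% for ENSRNOG00000018294 and from 82.2% to 87.5% for ENSRNOG00000014117. With normexp on the local background 0 of the 4 passed the variance test, with adjusted p-values of 0.40 for ENSRNOG00000017801, 0.92 for ENSRNOG00000006789 and 0.997 for the others. The source of the background values at these spots was not tested.

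Probes with a like pattern were sought by the distance between their 3 log2 values, among 16225 other gene probes. Nearest to ENSRNOG00000018294 were ENSRNOG00000012623 (distance 0.15) and ENSRNOG00000030871 (0.17), and nearest to ENSRNOG00000017801 were ENSRNOG00000001030 and ENSRNOG00000034198 (0.11 each). For ENSRNOG00000006789 they were ENSRNOG00000000264 (0.043) and ENSRNOG00000010194 (0.048), and for ENSRNOG00000014117 they were ENSRNOG00000006327 and ENSRNOG00000004316 (0.051 each). Within a distance of 0.1 lay 12 probes around ENSRNOG00000006789, 8 around ENSRNOG00000014117 and 0 around the brighter pair, where gene probes are sparse. The measure joins level and pattern over 3 arrays and names no shared function.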

How the data were processed

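RNA from 3 samples was amplified, coupled to Cy5 and hybridised to single-colour 3D-Gene arrays, per the labels' protocols. Per the file headers, the scanner files hold the median intensity of each spot and of its local background, linear and not background-subtracted. In the authors' deposited value table, intensity followed a straight line against the spot intensity on each array (residuals at most 5.2e-06), with 55.4, 56.9 and 63.8 units subtracted in replicates 1, 2 and 3 and the median set to 25. The image software is not given in the sources used here.

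Spot medians went through limma's normexp correction (offset 50, no local background), quantile normalization of the gene probes and log2. A probe counted as above background when its spot exceeded the blank spots' mean by more than 2 SD, after 5% of blank spots was trimmed at each end, and no scanner gain had failed. Variation was tested on the 16226 gene probes that were above background in every sample. The variance test set each probe's variance over the 3 arrays against limma's robust, level-dependent variance prior. It gave an upper-tail F p-value, with Benjamini-Hochberg adjustment over all 16226 (threshold 0.05). It was tested on simulated data. Named probes were the 4 members and, for each, the 2 nearest by Euclidean distance of the 3 log2 values. Members, lists and settings were chosen with earlier results of these data known. Pathway and cell type lists were not placed, since no identifier could be matched to a symbol. Alternatives covered the threshold, background correction, scaling, block position and leaving out each array. Computation used limma 3.58.1 in R 4.3.3, and matplotlib 3.10.9 in Python 3.11.15. The number of arrays limits the precision of every value.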

Additional observations from a re-analysis of the deposited data

How the results depend on the processing

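All 4 probes stayed above background under each of the other thresholds tried and without each array. Without an array, 16335 to 16858 of the 20174 gene probes were above background on the arrays kept. The share of all gene probes under the other thresholds is not given, so the count there is not read as a property of the 4. In the deposited value table the 4 probes had a value on all 3 arrays, as did 16229 of the 20174 gene probes. In every setting 0 of 4 passed the variance test, with adjusted p-values between 0.40 and 0.999. Few genes passed it in any setting, from 0 of 16226 with block medians subtracted to 42 of 16335 without replicate 2. That 0 of 4 passed is thus not read as a property of the 4 probes. The count with a 2-fold range (0) was 2 with normexp on the local background and 0 in the other alternatives. Among all genes, 2647 of 16229 reached that range in the deposited value table and 1398 of 16226 with the blank mean subtracted. With normexp on the local background 2075 of 16226 did, against 101 after quantile normalization. In the remaining alternatives it was reached by 4 genes (without replicate 2) to 186 genes (median scaling). A count of 0 among the 4 probes thus weighs differently between settings. The count highest on replicate 2 (2) was 4 in the deposited value table and 1 with local background. The share of all genes highest on replicate 2, 39.9% after quantile normalization, is not given for these settings. Neither count is thus read as a property of the 4 probes. Replicate 2 minus the mean of the other arrays turned to 0.093 (ENSRNOG00000018294) and 0.15 (ENSRNOG00000017801) in the deposited value table, where the median over all listed genes was 0.38, and with local background to 0.27 (ENSRNOG00000017801) and -0.14 (ENSRNOG00000014117). The cause of the changes with local background was not tested. No paired analysis was possible because there is only 1 group. Leaving out an array gives no order of 3 arrays, so the count highest on replicate 2 has no such value.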

Other observations

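The local background of both brighter probes was above that of every neighbouring spot on all 3 arrays. That of ENSRNOG00000014117 was so on replicates 1 and 3 only, and that of ENSRNOG00000006789 on none. For ENSRNOG00000018294 it was 3116, 228 and 1000 units in replicates 1, 2 and 3, against neighbour maxima of 1469, 178 and 566. For ENSRNOG00000017801 it was 1397 and 517 units in replicates 1 and 2, against maxima of 446 and 127. On replicate 3 its 3042 units compare with a median of 114 and a maximum of 335 units beside the 8 neighbouring spots. The brightest of those spots had a spot median of 938 units. On replicate 1, the 287 units beside ENSRNOG00000006789 compare with a median of 128 and a maximum of 899.5 units around its 8 neighbours. With normexp on the local background, replicate 3 minus replicate 1 was -3.19 for ENSRNOG00000017801, a value below which only 0.00616% of the 16226 genes lay, although its spot medians on those arrays were 3460 and 4088 units.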
